A study of Mus musculus with 15 samples.

Results

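The collagen genes were taken as all genes whose symbol reads Col, digits, a, digit, such as Col1a1, after the transcript accession of each array probe had been matched to a RefSeq symbol. Of the 44 such genes in the RefSeq table, 42 had a probe, among 32301 genes named on the array, and Col6a3 and Col12a1 were not matched. A total of 70 probes covered the 42 genes, and 24 genes had over 1 probe. Each gene was read from its brightest probe, by mean signal over all arrays. The rule itself used symbols and mean signal only, but it was chosen with earlier results of these data known.

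The series compared rejecting mouse allografts with controls on 15 single-colour Agilent arrays, 3 for each of 5 groups. Cardiac allografts were C57BL/10 hearts placed in the abdomen of CBA mice and taken at postoperative day 5 (POD5). Hepatic allografts were B10.BR livers placed orthotopically in B10.D2 mice and taken at POD5 or at POD8. The mice were males, and no age was given. The labels call the cardiac and hepatic controls normal tissue, while the study's results call them isografts, and their strain was not given in the sources used here. They are called controls below. Organ, strain pair and operation differed together, so a difference between heart and liver cannot be assigned to any of them. Nothing in the labels said whether the 3 samples of a group came from separate animals, so P-values measured the spread between these samples, which may be partly technical.

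Collagens are triple-helical proteins of the extracellular matrix, built from 3 alpha chains, each the product of a collagen gene. Fibrillar collagens (types I, III and V among others) form the tensile fibres of heart and liver stroma and are made mainly by fibroblasts and, in the liver, by stellate cells. Type IV collagen forms the sheet of basement membranes beneath endothelium and around muscle cells, type VI forms beaded filaments between fibre and cell, and FACIT collagens decorate the surface of fibrils.

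Signals are given below as log2 of the processed spot intensity after quantile normalization over all arrays, and a difference is the allograft mean minus the control mean on that scale. A gene was called when its adjusted P-value (Limma, Benjamini-Hochberg over all probes) was under 0.05. The 75th percentile of the raw signal lay between 394 and 710 on the cardiac allograft arrays, between 1020 and 1250 on the cardiac controls, between 338 and 478 on the hepatic allografts, and between 92.1 and 226 on the hepatic controls, where 52.5 to 57% of probes were well above background. Myh6, the cardiac myosin heavy chain, was at least 6490-fold higher in cardiac than in hepatic controls, where it was not above background. Alb, serum albumin, was at least 42800-fold higher in hepatic than in cardiac controls, where it was not above background either. In the heart, the allografts and controls were on different slides, so that group and slide cannot be told apart. The hepatic POD5 grafts also shared no slide with the hepatic controls, so slide and group cannot be separated in that comparison either, and POD5 array 3 lay on the slide of the cardiac allografts. Among the other hepatic arrays, 1 slide held 2 POD8 grafts and 2 controls.

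A total of 24 collagen genes were well above background on all 15 arrays and 15 on 1 to 14 of them. The other 3, Col10a1, Col28a1 and Col6a6, were above background on none. On all 3 arrays of a group, 36 collagen genes were well above background in the cardiac controls and 29 in the cardiac allografts. The corresponding numbers were 26 in the hepatic controls and 28 in the hepatic allografts at each time point.

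In cardiac allografts at POD5, more collagen genes were lower than higher. Compared with controls, 23 of the 42 genes were lower and 5 were higher, whereas 15.4% of all 32172 genes tested were lower and 15.4% were higher (30.8% called). The median difference over the collagen genes was −1.04, beside a median of 0.03 over all genes. For 26 collagen genes, all allograft signals lay below all control signals, and for 6 they lay above, where 24.2% and 29.9% of all genes did so. The lower set held 8 of 11 fibrillar, 2 of 3 short-chain, 3 of 4 transmembrane and 2 of 2 multiplexin genes. These counts are by brightest probe. They place Col2a1 among the lower and Col4a6 among the higher genes, though other probes of both pointed the other way. The count of lower genes was sensitive to single arrays. It was 14 without cardiac allograft 3, 12 without control 1 and 11 without control 3. Lower calls over all genes fell from 4960 to 3248, 3060 and 2809 on the same omissions. Only 1 collagen gene was called higher when any of the 3 controls was left out, where 2949 to 3351 of all genes were. Standardized fold change (SFC), the study's own statistic, with Bonferroni adjustment, called none of the 42 genes in any allograft comparison. It called 0.625% of all genes for cardiac grafts, 0.911% for hepatic grafts at POD5, 0.942% at POD8 and 0.576% between POD8 and POD5.

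**Figure D1:**
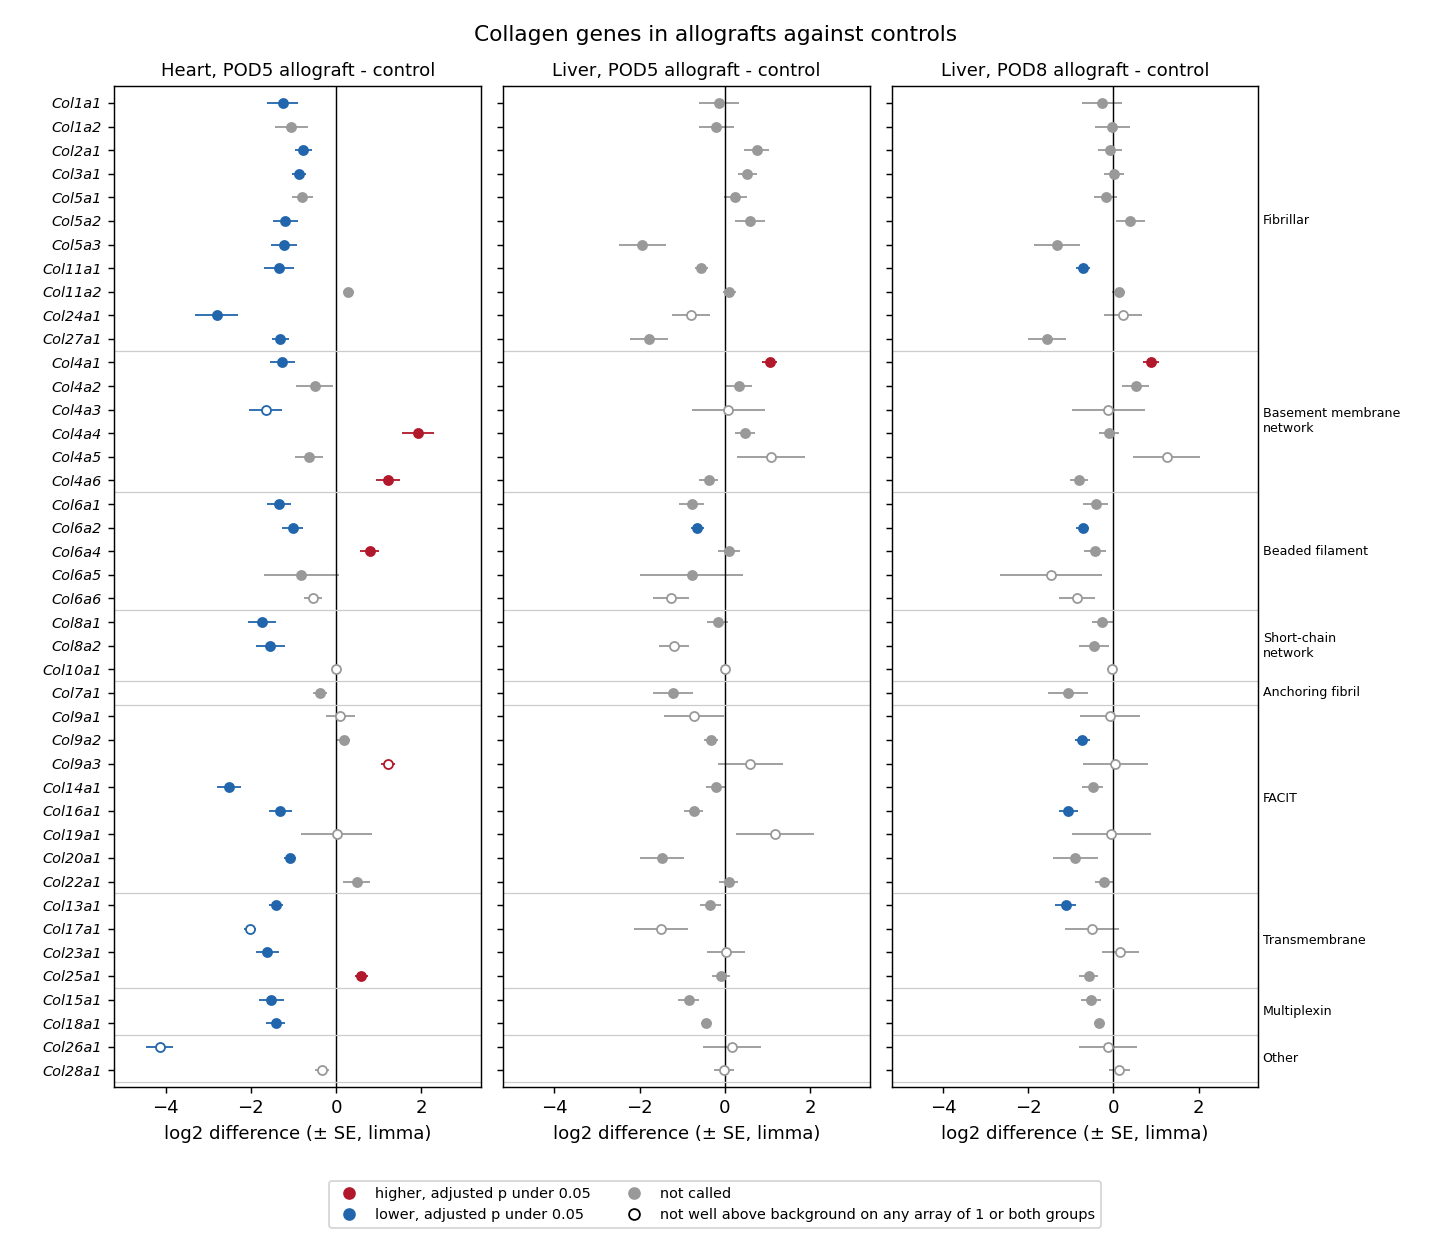
Difference in log2 signal (x axis, ± SE from Limma) between allografts and controls for each of the 42 collagen genes (y axis, grouped by class) in the heart at POD5 and in the liver at POD5 and POD8. Blue points are lower and red points higher at an adjusted P-value under 0.05, and open points mark genes not well above background on any array of at least 1 of the groups; 23 blue points stand in the heart panel, 1 in the POD5 and 5 in the POD8 liver panel.

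By their brightest probes, 8 of the 11 fibrillar genes were lower in cardiac allografts and none was higher, with a class median of −1.19. The 8 include Col2a1, whose other probe was higher (1.90, adjusted P = 0.0021). Col1a1, the major chain of type I collagen, gave signals of 14.68, 13.51 and 14.11 in the allografts and 15.69, 14.93 and 15.43 in the controls. The groups did not overlap, and the gene was 2.38-fold lower (difference −1.25, SE 0.36, adjusted P = 0.049). This call lay at the threshold. It held without allograft 1 (−1.55, adjusted P = 0.034) and was lost without any other 1 of the cardiac arrays (−1.46 to −0.95, adjusted P = 0.064 to 0.14). Col1a2, its partner chain in the type I trimer, had signals of 15.46, 14.54 and 15.14 in the allografts against 16.68, 15.53 and 16.09 in the controls. All allografts again lay below all controls, although allograft 1 and control 2 were close, and the difference of −1.05 did not pass the test (SE 0.38, adjusted P = 0.089; 95% interval −2.0 to −0.10).

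Col3a1, the single chain of type III collagen that co-assembles with type I in vessel walls, was lower too. Its signals were 15.28, 14.87 and 15.06 in the allografts and 16.12, 15.74 and 15.95 in the controls. The SD was 0.20 and 0.19, and the difference was −0.87 (SE 0.16, adjusted P = 0.013). Without control 3 the adjusted P-value was 0.053 at a difference of −0.86. Of the type V chains, which nucleate type I fibrils, Col5a1 differed by −0.79 and was not called by its brightest probe (adjusted P = 0.062), while its other probe was lower (−1.62, adjusted P = 0.0067). Col5a2 (−1.19, adjusted P = 0.033) and Col5a3 (−1.22, adjusted P = 0.034) were lower.

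Col24a1, a minor fibrillar collagen, had the largest fibrillar difference. The allograft signals were 4.20, 4.25 and 3.38 and the control signals 7.21, 5.71 and 7.30, a difference of −2.80 (SE 0.51, adjusted P = 0.013) with no overlap. Only 1 of the 3 allograft arrays had the probe well above background, and without control 1 the call was lost at an adjusted P-value that rounds to 0.05 (difference −2.55). Col27a1 (−1.31) and Col11a1 (−1.33) were also lower, and the type XI partner of the latter, Col11a2, differed by 0.29 and was not called (adjusted P = 0.12). Col2a1, the cartilage collagen, was lower by its brightest probe (−0.77, adjusted P = 0.040), but its other probe was higher (1.90, adjusted P = 0.0021), and no direction is given for this gene.

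FACIT collagens did not move together. Col14a1, which binds the surface of type I fibrils, showed the clearest change among the abundant members. Its signals were 10.36, 9.80 and 9.84 in the allografts and 12.90, 12.04 and 12.63 in the controls. The groups were separated by over 1 log2 unit, and the gene was 5.75-fold lower (difference −2.52, SE 0.28, adjusted P = 0.0032). A second probe of Col14a1 also fell, as the plot of all probes shows. Col16a1 (−1.31, adjusted P = 0.019) and Col20a1 (−1.08, adjusted P = 0.0045) were lower too. The Col20a1 probe was well above background on only 1 allograft array, and its difference ran from −1.71 to −0.29 over the alternatives. Col9a3, a chain of the type IX collagen of cartilage, was higher, at 3.47, 3.86 and 3.28 in the allografts and 2.35, 2.27 and 2.34 in the controls. The fitted difference was 1.22 (adjusted P = 0.0056). It was well above background on 1 allograft array and on no control array. Taking the detection limit for the controls gave 2.1-fold. This is no bound, because the allograft signals of 3.86 and 3.28 lay under the limits of their own arrays, 4.28 and 3.60. Col9a1 (0.10), Col9a2 (0.18), Col19a1 (0.01) and Col22a1 (0.48) were not called. The class median was 0.05.

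Both short-chain genes of type VIII, the network collagen of subendothelial matrix, were lower. Col8a1 gave 13.36, 12.23 and 12.91 in the allografts and 14.84, 14.41 and 14.48 in the controls, a 3.34-fold difference (−1.74, SE 0.32, adjusted P = 0.013). Col8a2 gave 7.60, 8.06 and 6.98 against 9.56, 8.88 and 8.86 (−1.55, SE 0.34, adjusted P = 0.023). For each chain, every allograft lay below every control. The 2 multiplexins, which sit in vascular basement membrane zones and carry an endostatin-like domain at their end, were also lower, Col15a1 by −1.52 (adjusted P = 0.015) and Col18a1 by −1.42 (adjusted P = 0.0088).

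The beaded filament chains split by chain. Col6a1 was lower by 2.51-fold (−1.33, adjusted P = 0.020) and Col6a2, which assembles with it, by 2.03-fold (−1.02, adjusted P = 0.026). Col6a4 was higher, with signals of 5.06, 5.50 and 4.70 in the allografts and 4.29, 4.43 and 4.18 in the controls (0.79, SE 0.22, adjusted P = 0.046). The gap between the lowest allograft and the highest control was small, and the call was lost without allograft 1 (adjusted P = 0.10) or any control (0.094 to 0.14). Col6a5 (−0.82) and Col6a6 (−0.54) were not called.

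Of the 4 transmembrane collagens, 3 were lower. Col23a1 had signals of 3.79, 4.79 and 4.21 in the allografts and 5.97, 5.76 and 5.92 in the controls (−1.62, SE 0.27, adjusted P = 0.0097). Col13a1, a collagen of cell adhesion sites, was lower by 2.65-fold (−1.41, adjusted P = 0.0039). Col17a1, a hemidesmosome collagen of epithelia, was at 1.77, 1.47 and 1.43 against 3.69, 3.44 and 3.59. The probe was above background on all controls and on no allograft, and these values lie so near the detection limit that the bound on its fold was about 1. Col25a1, known from amyloid plaques, was slightly higher, at 4.08, 4.54 and 4.20 against 3.56, 3.70 and 3.79 (0.59, SE 0.15, adjusted P = 0.036), and lost its call without allograft 3 (adjusted P = 0.082) or any control (0.082 to 0.12).

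Col26a1, which belongs to none of these classes, was above background, among the cardiac arrays, on those of the controls only. Its signals were 1.54, 2.23 and 2.02 in the allografts, none above background, and 6.52, 6.20 and 5.50 in the controls, all above background. The bound gave at least 5.66-fold lower signal (fitted difference −4.14, adjusted P = 0.0014). With normexp background correction the fitted difference was −1.12. Col7a1, the anchoring fibril collagen, was not called (−0.38, adjusted P = 0.14).

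Type IV collagen diverged by chain in the heart. Col4a1 and Col4a2, the chains of the ubiquitous basement membrane trimer, lie head to head on chromosome 8 and share a promoter region. The RefSeq windows of 300 bases around their starts, in GRCm38.p6, overlap by 78 bases. They are shown because the pair is expressed from 1 region and Col4a1 carried the clearest contrast between organs. The Col4a1 window is at chr8:11312777-11313076 on the minus strand and the Col4a2 window at chr8:11312555-11312854 on the plus strand, each with 250 bases before and 50 after the start. Capitals mark CCAAT and GGGCGG, searched on both strands.
Col4a1: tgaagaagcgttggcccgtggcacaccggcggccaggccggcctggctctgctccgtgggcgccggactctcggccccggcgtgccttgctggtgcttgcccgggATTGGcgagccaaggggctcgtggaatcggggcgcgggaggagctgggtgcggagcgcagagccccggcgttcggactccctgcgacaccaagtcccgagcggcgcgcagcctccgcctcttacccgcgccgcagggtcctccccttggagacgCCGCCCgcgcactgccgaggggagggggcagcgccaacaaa
Col4a2: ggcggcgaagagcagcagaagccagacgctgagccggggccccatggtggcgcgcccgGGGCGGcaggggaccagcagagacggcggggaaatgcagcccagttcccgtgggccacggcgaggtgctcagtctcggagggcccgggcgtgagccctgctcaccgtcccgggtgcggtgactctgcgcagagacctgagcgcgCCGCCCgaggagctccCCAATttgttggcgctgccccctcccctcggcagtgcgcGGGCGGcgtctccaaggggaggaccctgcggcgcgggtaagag
CCAAT, in either orientation, was in 37.4% of all 32851 RefSeq promoter windows of this length and in 12 of the 34 windows of collagen genes (35.3%). GGGCGG was in 35.7% of all windows and in 22 of 34 collagen windows (64.7%). TATAAA, also searched on both strands, was in neither Col4a1 nor Col4a2, in 13.6% of all windows and in 5 collagen windows. These matches describe letters in the windows only.

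Col4a1 signals were 12.14, 11.02 and 11.72 in the cardiac allografts and 13.09, 12.73 and 12.84 in the controls. There was no overlap, and the gene was 2.39-fold lower (−1.26, SE 0.30, adjusted P = 0.030). The call was lost without allograft 3 (adjusted P = 0.075) or any control (0.071 to 0.098), with differences of −1.34 to −1.17. The other Col4a1 probe, also above background on all cardiac arrays, was not called (−0.87, adjusted P = 0.12). Col4a2 signals were 12.07, 10.52 and 11.79 against 12.18, 11.91 and 11.81, so that allograft 2 was low and the other two allografts were within or near the control range. The difference of −0.50 was not called (SE 0.43, adjusted P = 0.42; 95% interval −1.59 to 0.58).

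Among the chains of the second basement membrane trimer, Col4a4 was higher in cardiac allografts. Its signals were 10.31, 11.63 and 10.45 against 8.88, 8.83 and 8.90 in the controls, a 3.79-fold difference (1.92, SE 0.37, adjusted P = 0.015). The controls agreed closely, with an SD of 0.04, and allograft 2 was the highest. Left without any 1 control, the adjusted P-value was 0.053 to 0.057 at differences of 1.91 to 1.94. Of its assembly partners, Col4a3 was lower and Col4a5 was not called. Col4a3 was at 1.81, 2.73 and 1.25 in the allografts, none above background, and at 3.57, 3.68 and 3.49 in the controls (bound at least 1.01-fold lower, adjusted P = 0.027), and Col4a5 differed by −0.63 (adjusted P = 0.20). Col4a6 was higher by its brightest probe, at 7.5, 8.46 and 7.5 against 6.51, 6.76 and 6.52 (1.22, adjusted P = 0.029). Its other 2 probes were lower, by −1.84 (adjusted P = 0.029) and −1.65 (adjusted P = 0.051), so the gene has no settled direction.

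**Figure D2:**
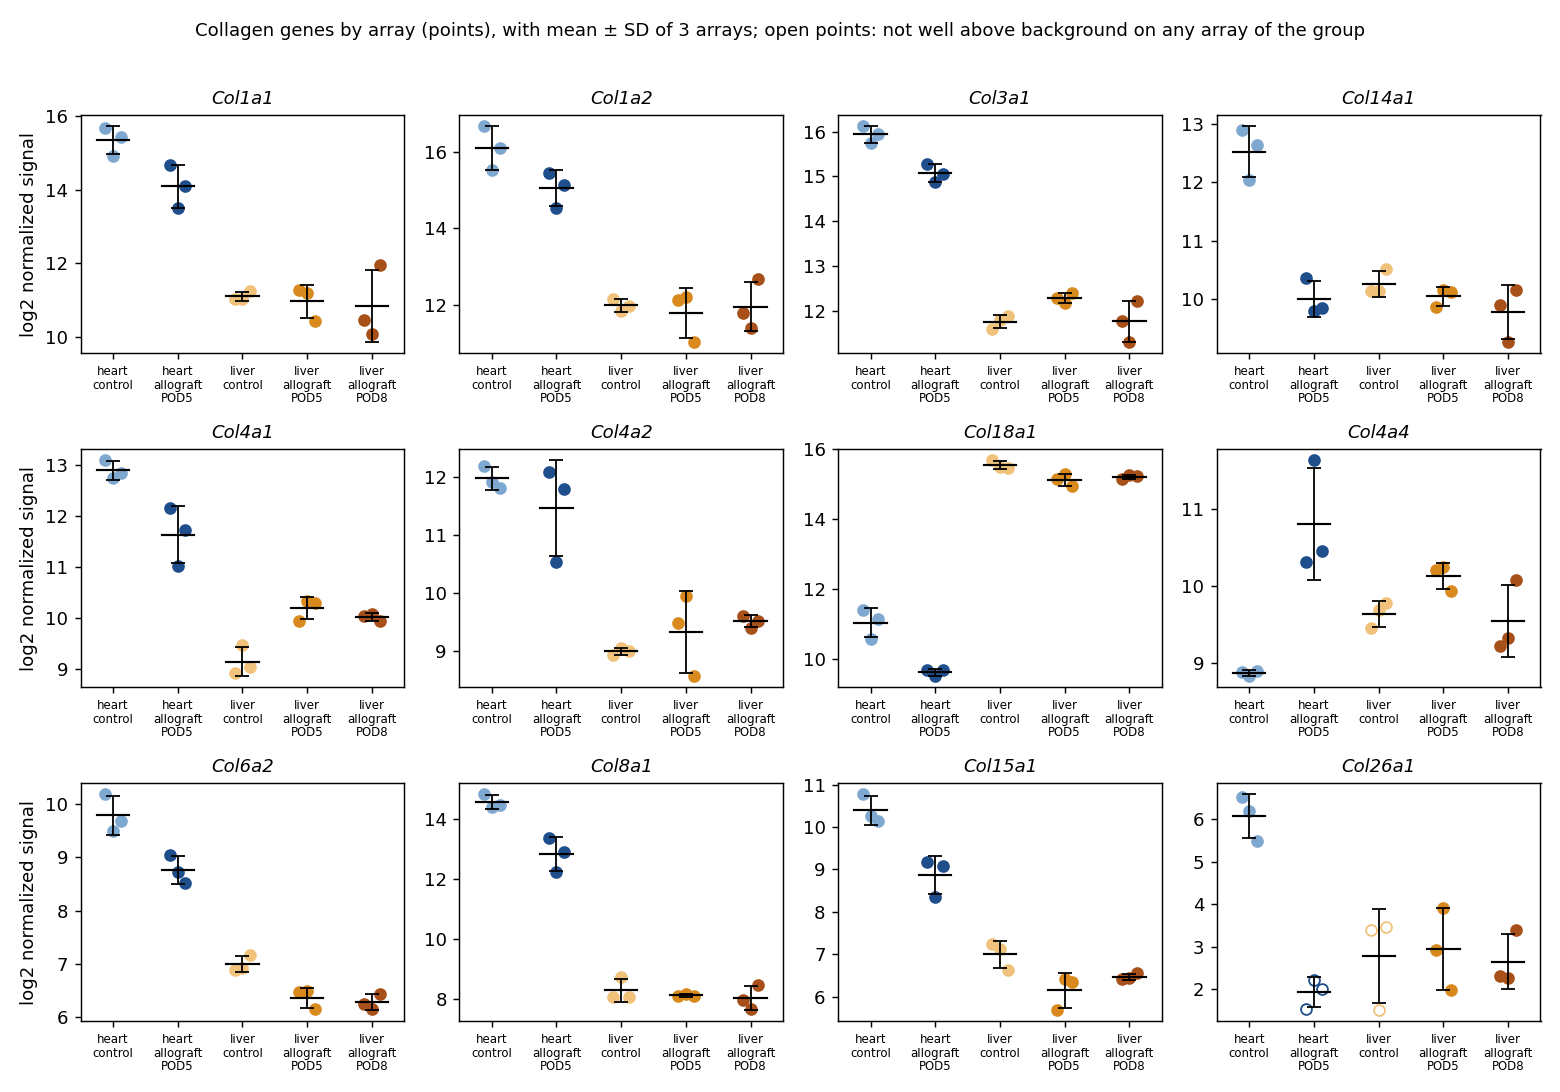
Log2 normalized signal (y axis) of 12 collagen genes on each array (points), by group (x axis), with the mean and SD of 3 arrays; open points mark groups in which no array was well above background. In most panels the cardiac controls are the brightest group and the cardiac allografts lie below them, except Col18a1, which is brightest in the liver, and Col4a4, which is highest in the cardiac allografts.

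Of the 18 collagen genes with over 1 probe above background on at least 1 cardiac array, the probes agreed in sign for 16 and disagreed for Col2a1 and Col4a6. The other probe of Col17a1, on the other side of 0, was above background on no cardiac array. Under every alternative that kept Limma as the test, 8 of the 23 lower calls held: Col13a1, Col14a1, Col15a1, Col17a1, Col18a1, Col23a1, Col26a1 and Col27a1. None of the 5 higher calls did.

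**Figure D3:**
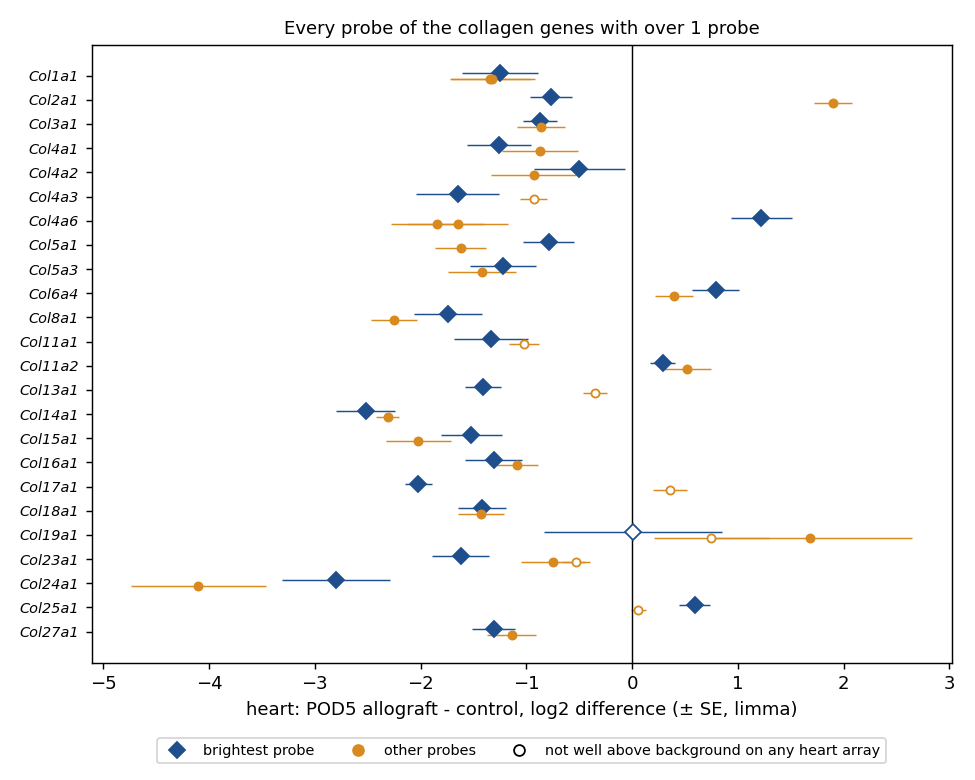
Difference in log2 signal between cardiac allografts at POD5 and controls (x axis, ± SE from Limma) for every probe of the 24 collagen genes with over 1 probe (y axis); diamonds are the brightest probes, circles the others, and open symbols were not above background on any heart array. Brightest and other probes lie on the same side of 0 for most genes, and on opposite sides for Col2a1, Col4a6 and Col17a1, where the other probe of Col17a1 was dim.

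Genes that process, cross-link, degrade or bind collagen were examined beside the collagens, and their counts are to be read against 15.4% of all genes lower and 15.4% higher. Among 19 enzymes and chaperones of collagen biosynthesis, 7 were lower and 2 higher in cardiac allografts. Colgalt2, a collagen galactosyltransferase, was lower by −3.01, P3h4, a component of the prolyl hydroxylation complex, by −1.10, and Fkbp10, an endoplasmic reticulum foldase, by −0.98. Of the 10 genes for propeptide removal and cross-linking, 4 were lower and 1 was higher. Loxl2, a lysyl oxidase that cross-links fibres, was lower by −1.77 and Adamts2, which removes the amino-terminal propeptide, by −1.36, and Adamts14, of the same family, was higher by 1.57. Of 10 genes listed for degradation, which include the metalloproteinase inhibitors Timp1 and Timp2, 3 were lower and none higher. They were the inhibitor Timp2 (−1.76), the collagenolytic protease Ctsk (−1.73) and the gelatinase Mmp2 (−1.28). Of 7 collagen receptors, 2 were lower, the fibroblast receptor tyrosine kinase Ddr2 (−1.62) and the integrin Itga11 (−1.18), and 1 was higher, the leukocyte inhibitory receptor Lair1 (2.01). Of 6 fibril-associated proteoglycans, 5 were lower, with Aspn at −4.03, Lum at −2.29 and Prelp at −2.07.

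Many markers of the cells that make collagen were lower too. The same shares of all genes, 15.4% lower and 15.4% higher, apply to the counts that follow. All 6 endothelial markers were lower, among them Erg (−2.14) and Tek (−2.08), and their summed signal was 1730 to 2820 in the allografts and 6390 to 7230 in the controls. Of 7 fibroblast markers, 6 were lower, among them Lum (−2.29) and Mfap5 (−2.26), with summed signals of 109000 to 126000 against 292000 to 439000. Of 6 myofibroblast markers, 3 were lower, including Fap (−3.0) and Postn (−2.76), with sums of 39400 to 49900 against 89100 to 118000. The other members were not called, with differences of 0.16 for Acta2, 0.13 for Tnc and −2.21 for Cthrc1. All markers of these 3 lists were above background on at least 1 array of each cardiac group. Of 6 cardiomyocyte markers, 3 were lower, including Pln (−2.19) and Ryr2 (−1.53), with sums of 293000 to 509000 against 527000 to 639000. All 6 T cell markers were higher, with Cd8a at 6.02, and their sum rose from 320 to 511 in the controls to 7710 to 11700. Of 4 macrophage markers, 1 was higher, Fcgr1 (1.44). The others were not called, at 0.56 for Csf1r, −0.33 for Adgre1 and −1.27 for Cd14, for which every allograft lay below every control. Of 7 genes listed as stellate cell markers 3 were lower, and of 5 listed for cholangiocytes 4 were lower, and all members of the latter list were above background on at least 1 cardiac control array. Of 5 hepatocyte markers 1 was lower, Apoa1, which was not above background on any cardiac array. The part of these cells in the collagen differences was not tested, and in bulk tissue fewer cells of a type and less RNA per cell cannot be told apart.

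**Figure D4:**
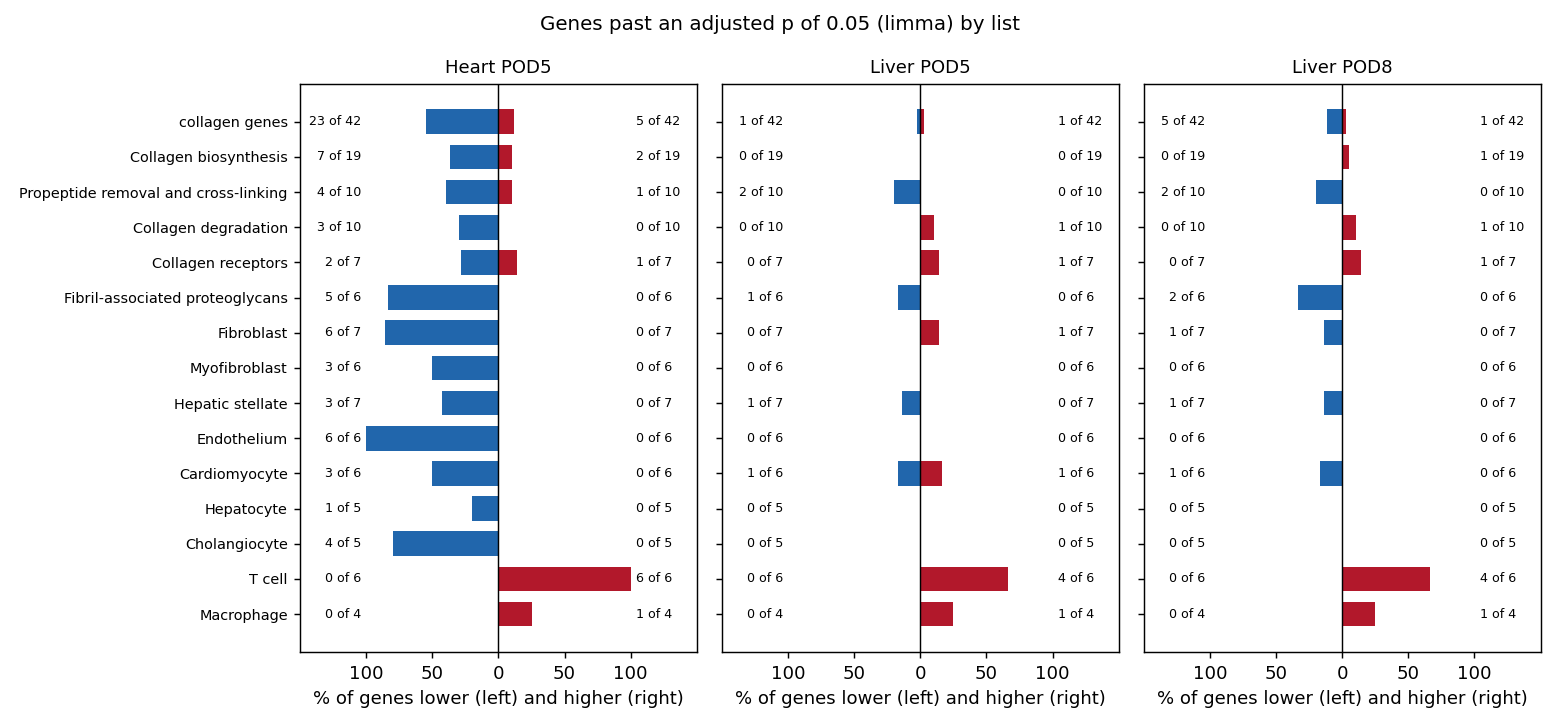
Share of genes of each list (x axis, %) that were lower (blue, left) or higher (red, right) at an adjusted P-value under 0.05 in Limma, in the heart at POD5 and the liver at POD5 and POD8, with the counts printed at the sides. In the heart, collagens, proteoglycans and fibroblast and endothelial markers lie to the left and T cell markers to the right, while the liver panels hold few collagen genes on either side.

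Few collagen genes were called in hepatic allografts. At POD5, 1 of the 42 was higher and 1 was lower, whereas 5.69% of all 32282 genes were higher and 3.99% lower (9.69% called). The median was −0.19, beside −0.08 over all genes. At POD8, 1 was higher and 5 were lower, against 4.91% and 2.79% of all genes (7.71% called), with a median of −0.26 beside −0.11. Both times share the same controls. All grafts lay below all controls for 14 collagen genes at POD5 and above them for 5, where 19.6% and 12.2% of all genes did so. At POD8 this held for 11 below and 2 above, against 19.8% and 11.9% of all genes. The directions depended on the scaling. With 75th percentile scaling 1 collagen gene was higher and 6 lower at POD5, beside 2045 and 7195 of all genes. Without normalization between arrays, the median over all genes was 0.98 at POD5 and 0.91 at POD8. Then 14 and 9 collagen genes were higher and 0 lower, beside 12865 and 11820 of all genes higher. The signs of Col6a2, Col11a1, Col13a1, Col16a1 and Col9a2 turned. At an unadjusted P-value under 0.05 in Limma, 15 collagen genes differed at POD5, 13 of them lower, and 11 at POD8, 10 of them lower. The share of all genes at this unadjusted level was not computed, so no trend is read from these counts.

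By its brightest probe, Col4a1 was the gene called higher at both times. Its signals were 9.94, 10.33 and 10.28 at POD5, 10.04, 10.07 and 9.93 at POD8, and 8.91, 9.46 and 9.04 in the controls. Each allograft lay above each control, with a 2.07-fold difference at POD5 (1.05, SE 0.18, adjusted P = 0.013) and a 1.84-fold difference at POD8 (0.88, SE 0.18, adjusted P = 0.028). At POD5 the call held when any array was left out. At POD8 it was lost without control 1 (0.77, adjusted P = 0.057), without control 3 (0.83, adjusted P = 0.056) or without any POD8 array (0.85 to 0.93, adjusted P = 0.065 to 0.11). The 4 arrays that shared 1 slide, 2 of POD8 and 2 of controls, gave 0.87. That fit called 0 of all genes, so it cannot decide the call of any gene. The other Col4a1 probe, also above background on all these arrays, was not called at POD5 (0.61, adjusted P = 0.18) or POD8 (0.69, adjusted P = 0.16). Col4a2 had signals of 9.47, 9.95 and 8.56 at POD5, 9.60, 9.40 and 9.52 at POD8 and 8.93, 9.05 and 8.99 in the controls. At POD8 each allograft lay above each control, but neither difference was called (0.34 at POD5, adjusted P = 0.54; 0.52 at POD8, adjusted P = 0.37).

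Col6a2 was lower at both times, at 6.46, 6.48 and 6.14, then 6.25, 6.14 and 6.44, against 6.89, 6.92 and 7.17 in the controls. The groups were separated, with differences of −0.64 at POD5 (SE 0.15, adjusted P = 0.042) and −0.72 at POD8 (SE 0.15, adjusted P = 0.032). Both calls were fragile: at POD5 the adjusted P-value was 0.055 to 0.089 without any 1 array, with differences of −0.70 to −0.53. At POD8 it was lost without 7 of the 9 liver arrays. Col6a2 was the only collagen gene called lower in the heart and at both hepatic times.

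A further 4 genes were lower at POD8. Col16a1, a FACIT collagen, gave 7.92, 7.66 and 8.50 against 9.22, 9.03 and 9.01 (−1.06, SE 0.22, adjusted P = 0.031). Col13a1 gave 7.23, 7.10 and 7.41 against 7.78, 8.73 and 8.61 (−1.12, SE 0.25, adjusted P = 0.038). Col11a1 gave 5.64, 5.56 and 5.82 against 6.39, 6.4 and 6.4 (−0.72, SE 0.16, adjusted P = 0.038), and Col9a2 gave 6.91, 6.82 and 7.30 against 7.91, 7.70 and 7.60 (−0.73, SE 0.17, adjusted P = 0.041). In all 4, no allograft overlapped a control. The number of collagen genes called lower at POD8 was 0 without POD8 array 1, POD8 array 2 or control 2. It was also 0 without POD5 array 1 or 2, which enter the estimate of the spread. In these fits 154 to 692 of all genes were lower, against 902 with all arrays. It was 3 without POD8 array 3 or POD5 array 3, where 533 and 1057 of all genes were lower. On the 4 arrays of the shared slide the differences were −1.33 for Col16a1, −1.08 for Col13a1, −0.80 for Col11a1, −0.94 for Col9a2 and −0.71 for Col6a2.

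The type I and III genes were not called in the liver. Col1a1 signals were 11.26, 11.19 and 10.44 at POD5, 10.47, 10.09 and 11.96 at POD8, and 11.02, 11.04 and 11.24 in the controls. The controls agreed within an SD of 0.12, whereas POD8 spread over an SD of 0.99 and overlapped them on both sides. Col1a2 was at 12.12, 12.20 and 11.02, then 11.79, 11.40 and 12.67, against 12.16, 11.83 and 11.96. For both chains, array 3 was the lowest within POD5 and array 3 the highest within POD8. Without POD5 array 3, the POD5 differences turned from −0.14 to 0.12 in Col1a1 and from −0.20 to 0.18 in Col1a2. Col3a1 was at 12.28, 12.18 and 12.41 at POD5 and 11.78, 11.30 and 12.22 at POD8, against 11.60, 11.79 and 11.89. All POD5 grafts were above all controls (0.53, SE 0.23, adjusted P = 0.19), while POD8 differed by 0.01 (95% interval −0.52 to 0.54).

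Some genes stood high on hepatic control 1, the dimmest of all arrays. Col5a3 was at 12 there and at 9.93 and 9.85 on the other two controls, against 8.55, 8.97 and 8.49 at POD5 (−1.93, SE 0.54, adjusted P = 0.069). Col27a1 was at 8.63 on that array and at 6.99 and 7.12 on the others, against 6.02, 5.84 and 5.55 (−1.78, SE 0.45, adjusted P = 0.050). For both genes every POD5 graft was below every control, and neither was called by its brightest probe. The other Col5a3 probe was lower at POD5 (−1.97, adjusted P = 0.011) and at POD8 (−1.68, adjusted P = 0.022), and was well above background on 1 control array, no POD5 array and 1 POD8 array. Col11a2 differed by 0.11 and 0.12 by its brightest probe and was not called. Its other probe, above background on all these arrays, was lower at POD5 (−1.01, adjusted P = 0.029) and at POD8 (−1.09, adjusted P = 0.026), so no direction is given for Col11a2 in the liver. Without hepatic control 1, 5 collagen genes were called lower at POD5, and without control 3 also 5, beside 1085 and 2809 of all genes. Without control 2, any POD5 array, or POD8 array 1 or 2 the number was 0, beside 400 to 838 of all genes.

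No collagen gene was called between POD8 and POD5 in Limma, where 0.00929% of all genes were called, and 4 passed an unadjusted P-value of 0.05. The share of all genes at this unadjusted level was not computed. Groups did not overlap for 4 collagen genes higher and 3 lower at POD8, where 8.84% and 11.1% of all genes did so. The genes with an unadjusted P-value under 0.05 were Col13a1 (−0.78), Col2a1 (−0.83), Col4a4 (−0.58) and Col9a2 (−0.40), all lower at POD8.

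Genes of the wider collagen pathway were called in the liver in small numbers, to be read against 5.69% of all genes higher and 3.99% lower at POD5, and 4.91% and 2.79% at POD8. Mmp13, an interstitial collagenase, was at 5.93, 5.43 and 7.23 at POD5 and 7.11, 7.81 and 6.73 at POD8, and at 1.44, 1.38 and 2.78 in the controls, where it was not well above background. It was at least 3.64-fold higher at POD5 (adjusted P = 0.0051) and at least 7.38-fold higher at POD8 (adjusted P = 0.0023), the only 1 of 10 degradation genes to be called. Lair1 was higher by 2.27 and 2.50, the only call among 7 receptors. Bmp1, which removes the carboxy-terminal propeptide, was lower by −1.24 and −1.0, and Adamts2 by −0.83 and −1.06, the only calls among 10 propeptide and cross-linking genes. Of 19 biosynthesis genes, none was called at POD5 and P4ha1, a prolyl 4-hydroxylase subunit, was higher at POD8 (1.52). Of 6 proteoglycans, Fmod was lower at both times (−0.88 and −1.10) and Dcn at POD8 (−1.09).

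The counts of hepatic markers are to be read against the same shares of all genes. Of 7 stellate cell markers, 1 was lower at each time, Reln (−2.12 and −2.26). The other 6 were not called and went both ways at POD5, from −1.55 for Hand2 to 0.60 for Des, and the summed signal was 2090 to 2880 at POD5, 1300 to 1910 at POD8 and 3560 to 3890 in the controls. Of 7 fibroblast markers, Gsn was higher at POD5 (0.69) and Dcn lower at POD8. The other 6 differed by −0.80 to −0.01 at POD5 and were not called, and the list median was −0.43 at POD5 and −0.91 at POD8. Of the myofibroblast, endothelial, hepatocyte and cholangiocyte markers, none was called at either time. Of 6 T cell markers 4 were higher at each time, with Cd8a at 11.03 and 11.05 on average against 3.05 in the controls. Of 4 macrophage markers Fcgr1 was higher (1.68 and 2.18). Of 6 cardiomyocyte genes, Actc1 was higher (1.77) at POD5, and Ryr2 at POD5 and Tnnt2 at POD8 were lower while not above background on any allograft array. The part of any of these cells in the collagen values was not tested.

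The difference between the organs was tested directly, as the heart POD5 difference minus the liver POD5 difference. A total of 11 collagen genes were called, 9 lower and 2 higher in the heart response, against 9.24% and 8.93% of all 32153 genes (18.2% called). Scaling to the 75th percentile moved the median of this difference over all genes to 0.77. Under it the split was 8 collagen genes lower and 6 higher, beside 2458 and 11645 of all genes. Col4a1 differed by −2.31 (SE 0.35, adjusted P = 0.0017), being lower in cardiac and higher in hepatic allografts. Col14a1 also differed by −2.31 (SE 0.38, adjusted P = 0.0025), with the cardiac fall beside a hepatic difference of −0.21. Col3a1 differed by −1.40 (adjusted P = 0.0085) and Col5a2 by −1.78 (adjusted P = 0.025), each lower in the heart and above 0 but not called in the liver. Col26a1 (fitted at −4.30, but above background on no cardiac allograft and no hepatic control, and −1.20 with normexp background correction), Col8a1 (−1.57), Col2a1 (−1.52), Col13a1 (−1.06) and Col18a1 (−0.99) were the other lower genes, and Col4a6 (1.60) and Col4a4 (1.44) the higher ones. Col14a1, Col26a1, Col3a1 and Col4a1 kept their call under every alternative that used Limma. The signs of Col2a1 and Col4a6 turned when all probes of a gene were averaged (0.30 and −0.33). The count fell to 7 without cardiac control 1, cardiac control 3 or hepatic POD5 array 2. In these fits 1741 to 2329 of all genes were higher and 2026 to 2580 lower. For Col1a1 (−1.11, adjusted P = 0.24) and Col1a2 (−0.85, adjusted P = 0.33) no difference between organs was called, with 95% intervals of −2.48 to 0.26 and −2.12 to 0.42.

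**Figure D5:**
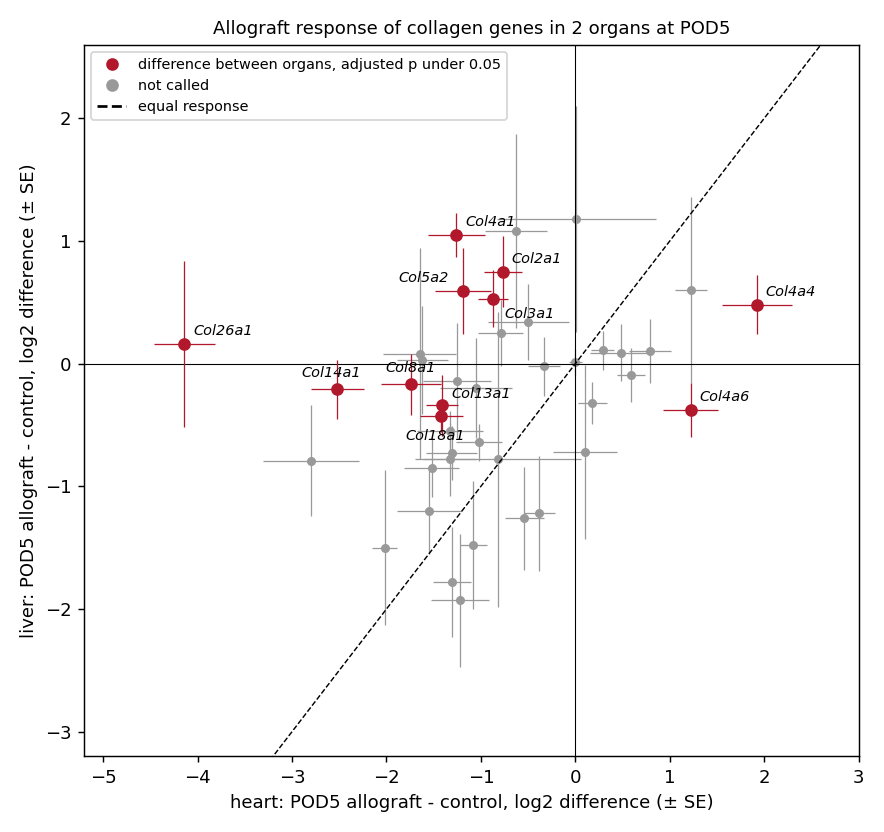
Difference between allografts and controls at POD5 (log2 signal, ± SE) in the heart (x axis) and in the liver (y axis) for the 42 collagen genes; red, named points are the 11 genes whose responses differed between the organs at an adjusted P-value under 0.05, and the dashed line marks equal responses. Most red points lie left of 0 in the heart and near or above 0 in the liver, and Col4a4 and Col4a6 lie to the right.

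The control organs already differed in their collagen genes. Between cardiac and hepatic controls 20 collagen genes were higher in the heart and 6 higher in the liver, against 26% and 27.3% of all genes (53.3% called), with a median of 0.90 beside −0.10. With 75th percentile scaling the split was 20 and 13, beside 6687 and 16703 of all genes. For 21 collagen genes all cardiac controls lay above all hepatic controls and for 11 below, where 29% and 37.6% of all genes did so. Col8a1 showed the widest gap in favour of the heart (78.3-fold), at 14.84, 14.41 and 14.48 in the heart and 8.07, 8.73 and 8.05 in the liver. Type I and III chains were 17.4- to 19-fold higher in the heart. Col18a1 was the reverse, 23.1-fold higher in the liver, at 15.70, 15.51 and 15.46 against 11.38, 10.57 and 11.13. In hepatic allografts Col18a1 stayed near this level, at 15.14, 15.30 and 14.94 at POD5 and 15.16, 15.27 and 15.24 at POD8 (−0.43 and −0.33, adjusted P = 0.090 and 0.19). Col13a1, Col6a4, Col4a6, Col25a1 and Col9a2 were the other genes higher in hepatic controls.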

How the data were processed

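Total RNA of 15 samples was labelled with Cy3 and hybridized to single-colour Agilent mouse arrays. The authors deposited scanner output of Feature Extraction 10.5.1.1, in which the processed intensity of a spot is on the linear scale, with a local background subtracted and no normalization between arrays. The deposited marks for outlier spots and for spots well above background were also used.

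From these values, outlier spots were left out (47 to 113 of 43379 per array), log2 was taken, spots were averaged for each of 41174 probes, and quantile normalization was applied over all 15 arrays. A probe was well above background on an array when at least 0.5 of its spots were marked so. No gene name column was used: 26690 probes (64.8%) were matched by transcript accession to a RefSeq table of GRCm38.p6, giving 18217 symbols. List genes with no match (Tll1, Lox, Itga10, Ddr1, Serpina1a and Cd68) were not analysed here. The number of arrays limits the precision.

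Groups came from the sample labels. The fits used Limma 3.58.1 (R 4.3.3; tables read by data.table, version 1.17.8) and were made to 6 cardiac arrays, to 9 hepatic arrays, and to all 15 for comparisons between organs, with Benjamini-Hochberg adjustment at 0.05. Where a gene was not well above background on any array of a group, its fold was given as a bound. For the dim arrays this took the higher of the probe's own signal and the lowest signal among probes well above background. For Col9a3 the value is no bound, as only 1 allograft array was above background. Quantile normalization and the Limma, SFC and t-test calls were tried on simulated data, and the other steps were not. Collagen genes and lists were chosen with earlier results of these data known. Signals by array were given for the called collagen genes with the largest differences, at most 8 in each direction in each comparison of allografts with controls and above background on a whole group, and for Col1a1, Col1a2, Col3a1, Col4a1 and Col4a2. Signals of Col5a3, Col27a1, Col18a1, Col9a3 and Mmp13 beyond that rule were added after their values were seen. At most 3 called genes of each pathway list and 2 of each marker list were named. Alternatives covered normalization, background correction (normexp, offset 50), filters, probes, model, test, blocks and arrays left out. Promoter windows came from RefSeq, GRCm38.p6. Plots used matplotlib 3.10.9 and Python 3.11.15.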

Additional observations from a re-analysis of the deposited data

Results flagged for a closer look

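For 11 of the 42 collagen genes the heart POD5 difference and the liver POD5 difference were not the same by the interaction term in Limma. Of all 32153 genes, 18.2% were called in this contrast. The heart difference minus the liver difference was −4.30 for Col26a1, −2.31 for Col4a1, −2.31 for Col14a1, −1.78 for Col5a2, −1.57 for Col8a1, −1.52 for Col2a1, −1.40 for Col3a1, −1.06 for Col13a1 and −0.99 for Col18a1. It was 1.44 for Col4a4 and 1.60 for Col4a6. Col26a1 was not well above background on any cardiac allograft or hepatic control, and its value was −1.20 with normexp background correction, and probes of Col2a1 and Col4a6 disagreed in sign in the heart. Organ, strain pair and operation differed together in this contrast and cannot be told apart.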

How the results depend on the processing

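Named collagen genes were recomputed under 16 settings and with each of the 15 arrays left out where they enter the fit. Among the counts and medians over the list, 91 alternatives lay close to the reported value, 51 moved and 2 reversed.

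The scaling decided the levels most. Scaling to the 75th percentile moved the median over all genes to 0.57 for cardiac grafts, −0.43 for hepatic grafts at POD5 and −0.53 at POD8, and the calls over all genes in the heart to 13112 higher and 4098 lower from 4954 and 4960. Under it the collagen median was −0.83 in the heart, with 7 genes higher and 25 lower. At POD8 the median was −0.58, with 10 collagen genes lower, and at POD5 6 were lower and 1 higher. Over all genes, 9448 were then lower at POD8, and 7195 were lower and 2045 higher at POD5. Without normalization between arrays, an alternative added after seeing the data, the collagen medians were −1.75 for cardiac grafts, then 1.07 at POD5 and 0.86 at POD8, beside −0.36, 0.98 and 0.91 over all genes. The higher counts were then 2, 14 and 9 collagen genes, beside 2714, 12865 and 11820 of all genes. No collagen gene was lower at POD5 or POD8, beside 31 and 18 of all genes. Signs turned at POD5 in Col1a1 (1.07), Col1a2 (0.96) and Col6a2 (0.82), and at POD8 in Col11a1 (0.71), Col13a1 (0.30), Col16a1 (0.37), Col1a1 (1.0), Col1a2 (1.18), Col6a2 (0.71) and Col9a2 (0.72). Normexp background correction gave 2 higher genes and a median of −0.54 in the heart and 3 lower genes at POD5. Over all genes, 4389 were then higher in the heart and 1488 lower at POD5. Quantile normalization within each organ gave 2 lower genes at POD5, beside 1358 of all genes.

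Taking the mean of all probes of a gene turned Col2a1 to 0.57 and Col4a6 to −0.75 in the heart, and to 0.30 and −0.33 in the difference between organs, with 3 genes higher in the heart and 2 lower at POD5. Over all genes, 4797 were then higher in the heart and 1296 lower at POD5. Only probes well above background gave 4 lower genes at POD5, beside 1509 of all genes. In 1 fit of 5 groups, 5 were lower at POD5. A fit of the 2 groups compared gave 0 higher and 0 lower at POD5, and 0 higher and 1 lower at POD8. A trended and robust prior gave 3 higher in the heart and 2 lower at POD8. The slide as a random block gave 0 lower at POD5 and 6 genes in the difference between organs. Counts over all genes were not computed for the fits of 5 or 2 groups, the prior or the slide block. Shifts particular to collagen genes cannot be read from those settings. Within 1 slide, added after seeing the data, the POD8 median was −0.55, beside −0.10 over all genes. There 0 collagen genes and 0 of all genes were called, so this fit cannot decide any call.

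Tests other than Limma called fewer genes. SFC with Bonferroni adjustment called 0 collagen genes in the allograft comparisons, both higher and lower, and 1 between the control organs. The methods' t-test, over 3 against 3 arrays, called 0 with Bonferroni adjustment, and with Benjamini-Hochberg adjustment 2 higher and 13 lower in the heart, 0 and 0 at POD5 and 0 higher and 1 lower at POD8. Counts over all genes were not computed for the t-test. On medians (SFC), the POD5 values of Col1a1 and Col1a2 were 0.15 and 0.16, and that of Col3a1 at POD8 was −0.01. Col3a1 at POD8 was also −0.21 with 75th percentile scaling, −0.04 with the slide block and −0.15 within 1 slide.

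Same-numbered samples did not deviate together (correlations of −0.12 to 0.09). The labels do not say whether they share more than the number, and these correlations cannot settle it. The replicate block gave 3 higher genes in the heart and 0 lower at POD8, and its counts over all genes were not computed.

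Leaving out 1 array gave 1 to 5 higher and 11 to 21 lower collagen genes in the heart, with medians of −1.25 to −0.80. Over all genes, 2949 to 6612 were then higher and 2809 to 6496 lower. In the liver it gave 0 to 5 lower at POD5, with medians of −0.30 to −0.15, and at POD8 0 to 1 higher and 0 to 4 lower, with medians of −0.50 to −0.14. Over all genes, 400 to 2809 were then lower at POD5, and 742 to 1694 were higher and 154 to 1324 lower at POD8. The difference between organs held 7 to 13 genes, beside 1741 to 3945 of all genes higher and 2026 to 3338 lower. The control organs held 26 to 29, beside 7575 to 8637 of all genes higher and 7304 to 9176 lower. Single genes whose sign turned were, at POD5 without array 3, Col1a1 (0.12) and Col1a2 (0.18), and at POD8, Col1a1 without POD8 array 2 (0.11), Col1a2 without POD8 array 1 (0.05), POD8 array 2 (0.25) or control 1 (0.06), and Col3a1 without POD8 array 3 (−0.21) or control 1 (−0.07). Their values over the left-out arrays ran, at POD5, from −0.29 to 0.12 and from −0.42 to 0.18, and at POD8 from −0.82 to 0.11, −0.39 to 0.25 and −0.21 to 0.24. The causes were not tested.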
